A study of Mus musculus with 36 samples.

Results

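Partly methylated CpG clusters inside genes were described in the mouse pre-B cell line B3. Reduced representation bisulfite sequencing (RRBS) reads the methylation of cytosines in CpG-rich fragments cut out by the enzyme MspI. A cluster was a run of at least 20 listed positions no more than 100 bp apart, and its level in a sample was the mean smoothed methylation level over its positions with a value in all 36 samples. Clusters were chosen when they lay on an autosome, overlapped a gene of GENCODE M21, lay more than 1 kb from every annotated transcript start and had a mean level from 10% to 80% over the 18 Control samples. Of 2164 clusters inside genes and that far from a start, 1909 had a value and 255 had none, and 137 met the rule, against 1645 above 80% and 127 below 10%. The whole series held 16734 clusters with a value.

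Both groups were B3 cells, a transformed line at the pre-BI stage, transduced with a mouse stem cell virus vector and sorted for GFP. Ikaros cells carried HA-Ikaros-ERt2-IRES-GFP, a fusion of tagged wild type Ikaros with the estrogen receptor hormone-binding domain that enters the nucleus when 4-hydroxytamoxifen (4-OHT) is added. Control cells carried ERt2-IRES-GFP, the vector without Ikaros. Each series was collected at 0, 2, 6, 12, 18 and 24 h with 3 replicates per time point, 18 samples per series, and the labels give 0.5 µM 4-OHT for all samples, those at 0 h included. The methods describe the 0 h cells as without 4-OHT, so whether those samples received the drug is not settled here. Each series is 1 transduced and sorted population, so an effect of the Ikaros fusion cannot be told apart from another difference between the populations.

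In most mammalian cells the CpGs of a transcribed gene body are almost fully methylated, whereas CpG islands at active promoters are almost free of methylation. A level in between means that some DNA molecules carry the methyl group and others do not, or that methylated and unmethylated positions lie side by side. Ikaros is a zinc finger transcription factor of lymphocytes under which pre-B cells leave the cell cycle and differentiate, and it works with chromatin-modifying complexes.

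The sequences of 5 clusters are shown because they carry the results below. They lie in the signalling gene Bcr, in the lymphoid transcription factor genes Irf4, Spib and Ets1, and in the muscle stem cell factor gene Pax7. They are the plus strand of GRCm38, and capitals mark each CG dinucleotide, the unit that is methylated. Spib and Pax7 are transcribed from the other strand.
Bcr, coding exon, chr10:75062036-75062203: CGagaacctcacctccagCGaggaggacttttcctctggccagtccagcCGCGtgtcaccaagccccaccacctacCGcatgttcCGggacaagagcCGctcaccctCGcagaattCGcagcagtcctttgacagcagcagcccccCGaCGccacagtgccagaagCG
Irf4, coding exon, chr13:30750615-30750780: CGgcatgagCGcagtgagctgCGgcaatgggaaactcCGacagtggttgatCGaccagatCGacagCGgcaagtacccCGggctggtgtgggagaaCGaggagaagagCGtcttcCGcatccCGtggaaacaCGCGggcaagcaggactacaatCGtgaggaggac
Spib, coding exon, chr7:44527986-44528159: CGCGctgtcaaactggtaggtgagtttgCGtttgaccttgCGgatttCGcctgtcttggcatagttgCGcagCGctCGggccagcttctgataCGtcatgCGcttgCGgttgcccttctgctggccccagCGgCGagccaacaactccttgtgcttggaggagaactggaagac
Ets1, intron, chr9:32672124-32672305: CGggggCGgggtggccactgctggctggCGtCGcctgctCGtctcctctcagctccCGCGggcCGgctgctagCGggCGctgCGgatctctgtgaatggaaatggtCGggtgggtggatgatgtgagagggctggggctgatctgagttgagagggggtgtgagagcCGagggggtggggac
Pax7, intron, chr4:139831619-139831865: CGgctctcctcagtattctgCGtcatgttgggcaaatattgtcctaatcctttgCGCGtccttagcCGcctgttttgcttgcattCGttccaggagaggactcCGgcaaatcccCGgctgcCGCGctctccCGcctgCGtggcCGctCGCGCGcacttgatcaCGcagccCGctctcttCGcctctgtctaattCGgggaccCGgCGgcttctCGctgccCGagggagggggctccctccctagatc
The Pax7 sequence held 24 CG dinucleotides in 247 bp. Those of Bcr, Irf4, Spib and Ets1 held 12, 15, 13 and 13.

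The 137 clusters touched 138 genes on 18 of the autosomes, with 15 clusters on chromosome 7 and 14 each on chromosomes 4 and 8. Coding exons held 74 of them, introns 53, noncoding exons 7 and untranslated regions 3. The coding-exon share was 54.0%, against 71.0% of the clusters inside genes above 80% and 29.9% of those below 10%. Introns held 38.7% of the partly methylated clusters, 23.3% of the clusters above 80% and 55.1% of those below 10%. Their median distance to the nearest transcript start was 3117 bp, against 4109 bp above 80% and 2307 bp below 10%. The median GC content was 62.8%, close to the 62.7% of clusters above 80%, and the ratio of observed to expected CpGs was 0.674 at the median against 0.725. The lower and upper quartiles of that ratio were 0.590 and 0.880, against 0.604 and 0.858 above 80%. At the median, the partly methylated clusters were placed between the other classes in position. Their median GC content was that of the methylated class and their median CpG ratio was lower, with quartiles that overlapped.

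Control levels chose the clusters and are given as a description. Few clusters inside genes were found in the middle of the scale, as the histogram of Control levels shows. The median over the 137 was 58.0% in Control and 60.8% in Ikaros. By steps of 10 points from 10% upwards, 13, 7, 9, 22, 19, 22 and 45 clusters were found, so the highest step held the most. Just inside the lower limit lay Cx3cr1, the fractalkine receptor gene, at 10.5% and Dbx1, a homeobox gene of the developing nervous system, at 11.4%. Just outside it lay 4930479H17Rik at 9.08% and Ryr1, a calcium release channel gene, at 8.69%. Near the upper limit Wnt1 and Clmp, a cell adhesion gene, were at 79.99% and 79.999%, and Slc27a1 and Lrp1 lay beyond it at 80.1% each. In the Ikaros samples, which the rule did not use, 119 of the 137 clusters were between 10% and 80%, 16 were above 80% and 2 were below 10%.

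**Figure D1:**
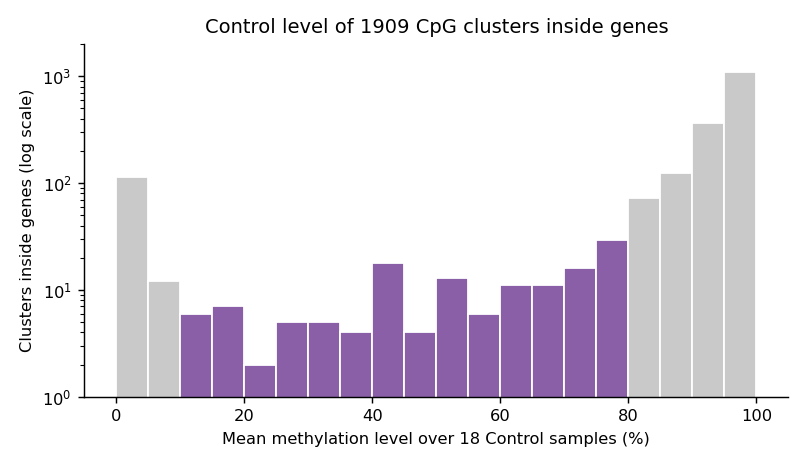
Number of CpG clusters inside genes (log scale) by mean methylation level over the 18 Control samples, in steps of 5 points. The 137 partly methylated clusters are drawn in purple, and 1082 of the 1909 clusters lie above 95%.

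The levels varied more between replicates than those of other clusters inside genes. Among the 3 replicates of a time point the SD was 5.64 percentage points at the median in Control and 5.58 in Ikaros, against 1.53 and 1.80 for the clusters above 80%. It ranged from 1.13 points to 29.3 points in Control. The highest was at Lars2, the mitochondrial leucyl-tRNA synthetase gene, which was named after its values were seen. There the lowest Control sample was at 0%, the median at 60.8% and the highest at 95.3%, whereas the Ikaros samples ran from 39.5% to 87.1%. Partly methylated clusters outside this class, at promoters, near starts or between genes, had a similar median replicate SD of 5.77 points in Control and 6.07 in Ikaros. The number of reads behind each level is unknown here, because the smoothed levels that were used come without coverage.

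Inside the clusters, the mean Control level of single positions took several forms. All positions were between 10% and 80% in 63 clusters. A further 51 also held positions above 80% and none below 10%, 16 also held positions below 10% and none above 80%, and 7 held both. The difference between the lowest and the highest position was under 20 points in 51 clusters and over 60 points in 18. Smoothing by the authors makes neighbouring positions alike, so the number of independent positions is smaller than the number listed.

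Even intermediate levels were found at Pax7, where the 42 positions ran from 45.4% to 50.7% in Control. Bcr, Irf4 and Spib were also flat, with ranges of 38.2% to 45.5%, 42.4% to 46.0% and 39.8% to 41.2%. Garem2, which encodes a regulator of MAPK signalling, sloped from 74.0% to 21.9% over its 136 positions. A second form was a step from methylated to unmethylated sequence. At Sp9, a zinc finger transcription factor gene, 25 of 56 positions were below 10% and 22 above 80%, and the cluster mean of 41.1% described few of its positions. Bsn, which encodes the presynaptic scaffold protein Bassoon, had 9 positions below 10% and 36 above 80%. The cluster in Cx3cr1 was of the opposite kind, with 36 of 46 positions below 10% and an edge reaching 53.5%.

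**Figure D2:**
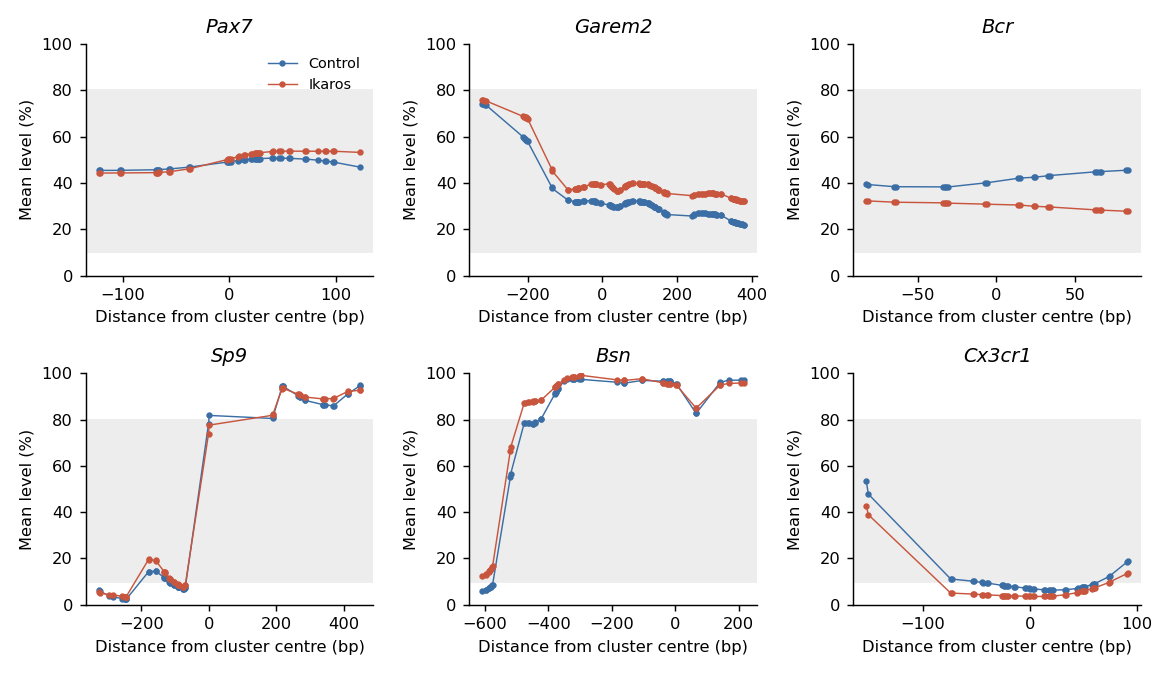
Mean level of each position (%) over the 18 Control (blue) and 18 Ikaros (red) samples against its distance from the cluster centre (bp) in 6 clusters, with the range from 10% to 80% in grey. Pax7 and Bcr are flat, Garem2 slopes, and Sp9 and Bsn step from below 10% to above 80%.

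The largest clusters by listed positions were Zfp771 with 218, Zfp697 with 212 and Garem2 with 158, coding exons of 2 zinc finger genes and a signalling gene. Zfp771 was at 53.7 ± 5.76% in Control and 52.6 ± 4.96% in Ikaros (SD, n = 18 each), and Fbrsl1, with positions from 32.1% to 47.2%, was at 40.7 ± 4.43% and 42.8 ± 6.79%. Neither difference passed the test between the series that is described below, with adjusted p of 0.854 and 0.723 by limma. At the other end, 14 clusters rested on fewer than 10 positions with a value in all samples, and 3 on fewer than 5.

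Some genes held more than 1 of the clusters, and those given here were looked up after the values were seen. Gse1 held 3, which lie far apart in the gene and had Control means of 77.9%, 43.8% and 19.9%. The overlapping gene Gm20388 shares them. Pax7 held 2, at 50.8% and 48.8%, and Zfp697 2, at 69.2% and 73.6%. Both Wnt10b clusters were near 79%, and those of Gas2l1 were at 15.9% and 41.1%. Neighbouring clusters of 1 gene were thus at like levels in Pax7, Zfp697 and Wnt10b and at unlike levels in Gse1 and Gas2l1.

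By gene list, 3 of 36 clusters in lymphoid transcription factor genes were partly methylated (8.33%), against 7.18% of all 1909. Chromatin regulators had 1 of 20, genes of pre-B receptor and cytokine signalling 0 of 11, protocadherins 0 of 6, imprinted genes 1 of 5, Hox genes 1 of 10, zinc finger genes named Zfp 5 of 63, collagen genes 1 of 8 and voltage-gated ion channel genes 3 of 28. The counts are small and none of the lists was tested. The imprinted gene was Kcnq1, whose intronic cluster was at 78.3 ± 5.17% in Control and 78.9 ± 3.24% in Ikaros. The Hox gene was Hoxc5, at 73.4% and 73.3%.

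Among the lymphoid factors, Spib encodes an Ets family factor related to PU.1 that acts in B cells. The Control samples at Spib were between 0% and 61.9% with a median of 41.8%, and the Ikaros samples between 29.99% and 62.7% with a median of 42.7%. Spib was at 0% in Control 0 h replicate 1, the library with the most positions without a value (11.6%), and the other Control samples were between 11.2% and 61.9%. Irf4 encodes a factor that drives light chain rearrangement and plasma cell differentiation. Its Control samples were between 26.0% and 59.1% (median 43.7%) and its Ikaros samples between 34.9% and 65.6% (median 43.8%). Ets1, whose product regulates lymphocyte differentiation, was low, at 8.72% to 20.3% in Control (median 16.0%) and 6.75% to 23.9% in Ikaros (median 13.3%). The series overlapped at all 3 genes, and neither range held the other in full at Spib or Irf4, while at Ets1 the Ikaros samples reached beyond the Control samples at both ends. Adjusted p between the series was 0.746 at Spib, 0.818 at Irf4 and 0.330 at Ets1 by limma.

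The Control series asks what the vector and the drug do alone, and its comparison with Ikaros over all time points was made with limma on the mean M-value, log2 of the methylated over the unmethylated share, of all 16734 clusters. Among the 137, 26 (18.98%) differed at an adjusted p under 0.05, 19 higher and 7 lower in Ikaros. Over all clusters 4.84% differed, 3.71% higher and 1.13% lower. Of the other partly methylated autosomal clusters, which lie mostly in or near promoters, 222 of 1043 differed (21.3%), 196 higher and 26 lower. Of the clusters inside genes, 4.13% above 80% and 7.09% below 10% differed. The share of called clusters among the 137 was thus above that of all clusters and near that of partly methylated clusters elsewhere, with 13.9% higher and 5.11% lower here and 18.8% and 2.49% there. These shares were not tested against each other.

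The rule used the Control mean, which is also part of the difference tested. When the clusters were chosen instead on Control replicate 1 and tested on replicates 2 and 3, 16 of 145 were called (11.03%), 12 higher and 4 lower, against 2.38% of all clusters in that fit. Without regard to the test, 99 of the 137 (72.3%) were higher and 38 lower in Ikaros, and the median difference in level was 1.59 points. The other partly methylated clusters were alike, with 73.1% higher and a median of 2.13 points, and over all clusters 55.3% were higher with a median of 0.0359 points. Per sample, the mean level over the 137 clusters was between 53.2% and 56.5% in Control (55.1 ± 1.10%) and between 55.6% and 58.7% in Ikaros (57.2 ± 0.92%, SD, n = 18 each), and these ranges overlapped. The Control levels that chose the clusters enter these directions, medians and means, and the same limits chose the other partly methylated clusters. The repeat on other replicates was made for the called counts only, so these values are a description.

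One library stood apart at the called clusters. Control 24 h replicate 2 was the Control sample nearest to the Ikaros levels at 10 of the 26, and it lay past the midpoint of the 2 series means at 18 of the 26. For the other 17 Control samples these counts were 0 to 4 and 1 to 7. Among the Ikaros samples they were 0 to 4 and 3 to 8. Without this library 21 of the 137 were called, all of them among the 26. The 5 lost were Zscan10, Iglon5, 1700123O12Rik, Gse1 and Wnt1, all higher in Ikaros, whose adjusted p by limma was 0.0389 to 0.0460 with the library and 0.0536 to 0.0637 without it. With 2 measures of data quality as covariates, namely each sample's share of empty positions and its share of levels that equal 0 or 1, 6 of the 137 were called (4.38%), 5 higher and 1 lower, against 2% of all clusters. The 6 were Zfp608, Tnrc18, Adgrb1, Akt1s1, Garem2 and Cx3cr1. The share of levels that equal 0 or 1 moved with the series, at 36.2 ± 7.63% in Ikaros (highest 59.1%) and 27.9 ± 4.89% in Control (highest 36.2%, SD, n = 18 each), and its part in the lost calls was not tested.

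**Figure D3:**
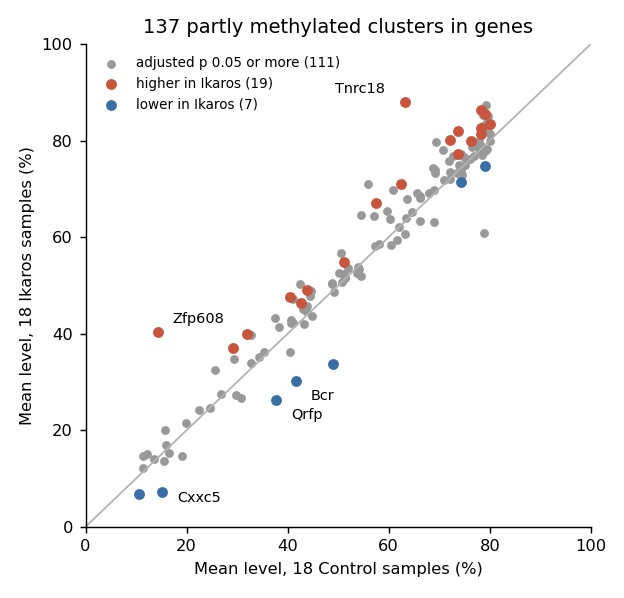
Mean level of each of the 137 clusters over the 18 Ikaros samples against that over the 18 Control samples (%), with the line of equal levels. Red points (19) were higher and blue points (7) lower in Ikaros at an adjusted p under 0.05, and most points lie near the line.

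The widest differences towards higher methylation in Ikaros were at Zfp608 and Tnrc18. Zfp608, a zinc finger protein gene, has a coding-exon cluster at chr18:54987739-54987993 whose 28 positions were evenly low in Control. Its Control samples ran from 10.1% over a median of 13.2% to 31.0%, and its Ikaros samples from 25.8% over 40.2% to 56.6%. The difference in M-value was 2.12 ± 0.137 (SE) with an adjusted p of 1.03e-11 by limma. The highest Control sample was Control 24 h replicate 2. Without it the Control samples reached 16.3%, and Zfp608 was then the only 1 of the 137 whose series did not overlap, against 0.221% of all clusters (37 of 16734). This library was singled out at the called clusters, Zfp608 among them, so the lack of overlap is largely set by that choice.

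Tnrc18 encodes a chromatin protein with a BAH domain, and its cluster lies in an intron at chr5:142814012-142814564. Control samples ran from 47.5% over a median of 60.9% to 85.9%, and Ikaros samples from 81.9% over 88.7% to 91.0%. The highest Control samples were Control 0 h replicate 1 at 85.9%, which lay above the lowest Ikaros samples, and Control 24 h replicate 2 at 80.3%, which lay below all of them. The other Control samples were no higher than 69.0%. The M-value difference was 2.29 ± 0.235 (adjusted p = 4.34e-08, limma).

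A pair of adhesion G protein-coupled receptor genes was also higher. The Adgrb1 coding-exon cluster was at 72.2 ± 4.32% in Control and 80.2 ± 1.93% in Ikaros (adjusted p = 4.74e-06, limma), and the Adgrb2 intronic cluster at 73.7 ± 4.56% and 81.9 ± 4.21% (1.57e-04). Akt1s1 encodes PRAS40, an inhibitor of the growth kinase complex mTORC1. Its cluster was at 34.8% to 51.7% in Control (median 39.7%) and 42.3% to 54.4% in Ikaros (median 48.4%), with an adjusted p of 1.04e-05 that rose to 0.549 when all positions with a value were averaged. Pde4c, a cAMP phosphodiesterase gene, was at 78.3 ± 4.79% and 86.4 ± 3.59%, and Nectin4, a cell adhesion gene, at 79.0 ± 6.78% and 85.5 ± 3.62% (adjusted p = 7.24e-05 and 4.77e-04, limma). Garem2 was at 31.9 ± 3.36% in Control and 40.01 ± 4.03% in Ikaros (3.14e-04). The levels of the 2 series overlapped at each of these 6 clusters.

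The other clusters that were higher in Ikaros included those in Zfp697, Bsn, Ctif, Tmem102, Zscan10, Mybpc2, Iglon5, 1700123O12Rik, Gse1 and Wnt1. Those not named by rule were added after their values were seen. Over the 19 the difference in level was 7.17 points at the median and ran from 3.17 to 26.0 points. Wnt1, at the upper limit of the rule, was at 79.99 ± 3.05% and 83.5 ± 2.62%.

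Bcr, whose product regulates small GTPases and is fused to ABL1 in leukaemias, was lower in Ikaros. Control samples ran from 26.0% over a median of 42.6% to 51.3%, and Ikaros samples from 18.4% over 26.8% to 57.7%. The lowest Control sample was Control 24 h replicate 2, and the highest Ikaros sample, above all Control samples, was Ikaros 24 h replicate 1. At 0 h the Ikaros samples were at 24.0 ± 0.0855% and the Control samples at 45.3 ± 5.52% (SD, n = 3 each). At 24 h they were at 34.6 ± 20.01% and 32.7 ± 6.25%, and overlapped. Without Ikaros 24 h replicate 1 the Ikaros mean at 24 h was 23.1%, over 2 samples at 23.3% and 22.8%. That sample was left out at this cluster after its value was seen, so the lower mean is set by the choice. The M-value difference over all times was −0.80 ± 0.196 (adjusted p = 0.0104, limma). Without Control 24 h replicate 2 the adjusted p was 0.00409, and over 13 alternative fits it reached 0.353, with the quality measures as covariates.

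Qrfp, a neuropeptide gene, was at 17.1% to 47.0% in Control (median 39.7%) and 12.1% to 42.3% in Ikaros (median 25.8%), with an adjusted p of 0.00432 by limma. Cxxc5, which encodes a CXXC zinc finger protein that binds unmethylated CpGs, was at 3.56% to 25.1% in Control and 0.422% to 20.4% in Ikaros (adjusted p = 0.00247). The lowest Control sample at both was Control 24 h replicate 2. At 24 h the mean was higher in Ikaros at both, against the called sign. Qrfp was then at 17.1% to 29.2% in Control and 22.7% to 42.3% in Ikaros. Cxxc5 was at 3.56% to 11.9% in Control and 0.422% to 20.4% in Ikaros. Cx3cr1 was at 10.5 ± 2.01% and 6.78 ± 1.84% (adjusted p = 1.64e-07), and its cluster is shared with the overlapping gene Gm49427. Of the Wnt10b clusters, that at chr15:98774106-98774368 was at 79.0 ± 2.83% in Control and 74.7 ± 3.24% in Ikaros (adjusted p = 0.00703), while the other, at chr15:98772381-98772833, was at 78.6 ± 10.2% and 82.9 ± 7.88% (adjusted p = 0.773). Prss56 was also lower, at 74.3 ± 1.55% and 71.5 ± 2.48%. Wnt10b lost its call without replicate 1, where the adjusted p of the first cluster was 0.241 by limma. The median difference over the 7 lower clusters was −8.01 points.

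**Figure D4:**
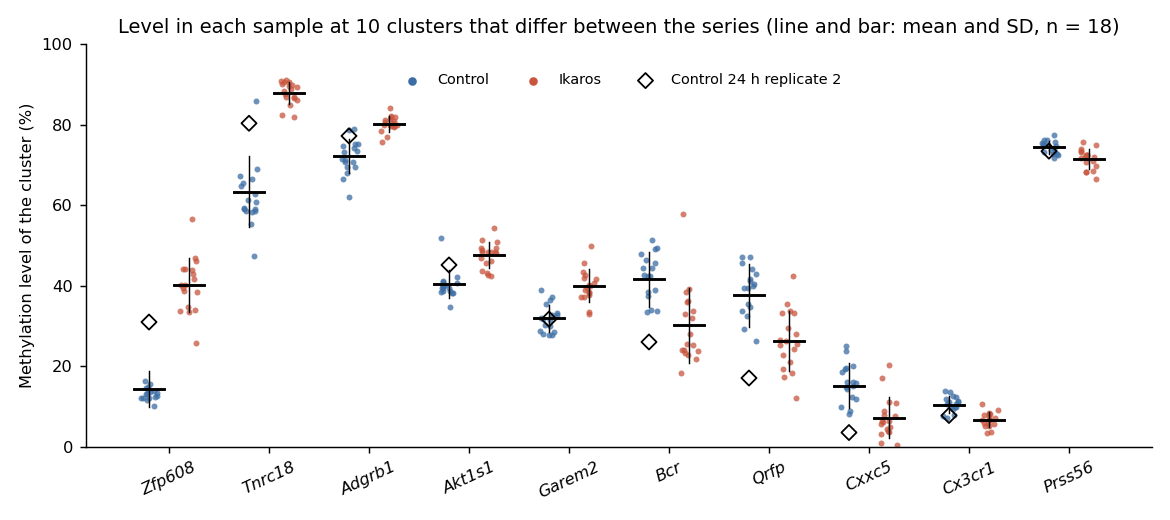
Methylation level (%) in each of the 18 Control (blue) and 18 Ikaros (red) samples at 10 clusters called between the series, with mean (line) and SD (bar). Open diamonds mark Control 24 h replicate 2, which lies on the Ikaros side of the other Control samples at Zfp608, Bcr, Qrfp and Cxxc5.

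The series overlapped at all 26 called clusters. Over the whole series 0.0478% of clusters, 8 of the 810 called, had levels that did not overlap. The 26 were called on all 36 samples, so their sign within a time point or batch is largely set by that choice and is given as a description. It was the called sign in 26 of 26 clusters at 0, 2, 6 and 12 h and in 23 of 26 at 18 h and at 24 h, and over all 810 called clusters in 93.1% to 97.5% at each time. In the batches named by the labels the sign was that of the call in 26 of 26 clusters in batches 1, 3 and 4. It was so in 22 of 26 in batch 2, which holds 1 sample of each series, taken at 0 h. Over the 810 these shares were 99.1%, 98.5% and 99.8% in batches 1, 3 and 4 and 84.8% in batch 2. With the batch as a block, limma called 24 of the 137 (17.5%), against 4.91% of all clusters, and the 2 lost were Zscan10 and 1700123O12Rik, with an adjusted p of 0.0525 and 0.0569. With the 0 h samples alone, 3 against 3, limma called 0 clusters of the 137, against 0.00598% of all, and 18 (13.1%) were under an unadjusted p of 0.05, against 6.94% of all. The median difference of the 26 in the called direction was 7.67 points at 0 h, 7.39 at 2 h, 5.54 at 6 h, 7.19 at 12 h, 5.85 at 18 h and 4.42 at 24 h, where Control 24 h replicate 2 is 1 of the 3 Control samples. Over all 137 the median of Ikaros minus Control was between 1.11 and 1.89 points at the times before 24 h and 3.17 points at 24 h. Coding exons held 17 of the 26, introns 8 and a noncoding exon 1.

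Of the 111 clusters that were not called, 20 differed by more than 5 points between the series means and 4 by more than 10. The widest difference of these was in Tbx3os2, a long noncoding RNA gene chosen for mention after its values were seen. The cluster was at 42.9% to 100% in Control (median 80.4%) and 4.57% to 88.2% in Ikaros (median 63.9%), with an adjusted p of 0.149 by limma.

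Time after 4-OHT is the axis of the study. By limma's F test over time in the Ikaros samples, 0 of the 137 clusters had an adjusted p under 0.05. An unadjusted p under 0.05 was found at 6 (4.38%), against 5.22% of all clusters, of which 0% were called. In Control 0 of the 137 were called and 8 (5.84%) had an unadjusted p under 0.05, against 0.012% called and 4.83% unadjusted over all clusters. The course over time differed between the series at 0 clusters, and 8 (5.84%) had an unadjusted p under 0.05, against 0% and 5.12% over all. The shares among the 137 were near those of all clusters. The lowest adjusted p was 0.516 in Ikaros, 0.567 in Control and 0.729 for the course, and a p that misses the threshold does not show that levels stayed the same.

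The mean level over the 137 clusters was 56.9 ± 1.55% at 0 h, 57.4 ± 0.343% at 6 h and 58.0 ± 0.604% at 24 h in Ikaros, and 54.8 ± 1.63%, 55.6 ± 1.51% and 54.7 ± 0.871% in Control (SD over 3 replicates). Bsn had the smallest p over time in Ikaros (0.00122 unadjusted, 0.516 adjusted, limma). It was at 80.1 ± 0.680% at 0 h, 78.1 ± 1.18% at 12 h, 82.5 ± 0.721% at 18 h and 80.8 ± 2.15% at 24 h. Onecut3, a homeobox gene, was at 63.2 ± 1.78% at 0 h, 54.7 ± 0.795% at 2 h and 58.7 ± 3.67% at 24 h in Ikaros, and Gm28863 at 80.4 ± 2.83% and 84.9 ± 1.31% at 0 and 24 h. In Control the smallest p was at Six4, a homeobox gene of muscle and sensory development, which was at 81.2 ± 1.02% at 0 h, 67.5 ± 6.69% at 18 h and 72.4 ± 3.69% at 24 h (adjusted p = 0.567, limma). In Ikaros Six4 was at 65.3 ± 10.7% at 0 h and 77.4 ± 5.43% at 18 h. The other Control clusters with the smallest p were Gse1 at chr8:120323146-120323411, at 46.6 ± 1.29% and 43.1 ± 2.82% at 0 and 24 h, and Qrfp, at 41.4 ± 2.41% and 24.1 ± 6.29%. C230088H06Rik, next after Bsn and Six4 for a different course, was at 90.1 ± 9.62% in Control and 78.8 ± 3.44% in Ikaros at 0 h, and at 75.1 ± 4.08% and 80.7 ± 6.50% at 24 h. None of these passed the adjustment over all clusters.

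**Figure D5:**
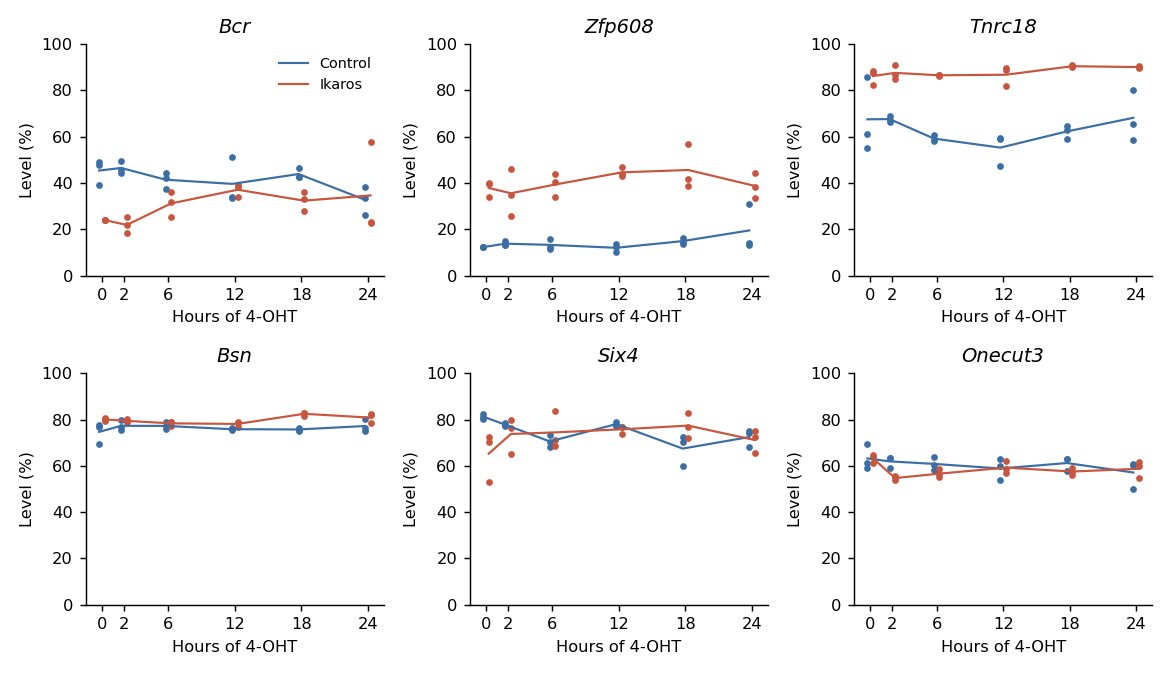
Methylation level (%) against hours of 4-OHT at 6 clusters, with a point for each replicate and a line through the means of 3 replicates (Control blue, Ikaros red). The means of Bcr, Zfp608 and Tnrc18 lie apart already at 0 h, those of Bcr are close at 24 h with Ikaros 24 h replicate 1 included, and Bsn, Six4 and Onecut3 have the smallest p over time in 1 series without passing the adjustment.

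Short motifs were counted in windows of 300 bp around each cluster centre, on both strands and without regard to the other motifs. TGGGAA, the core of the sequence bound by Ikaros, was found in 29 of the 137 windows (21.2%), against 17.7% of the clusters inside genes above 80%, 17.4% of the other partly methylated clusters and 15.9% of all. TGTGGT, the Runx core, was in 18 windows (13.1%, against 8.89% of all). CAGGTG, an E-box bound by E2A, was in 37 (27.0%, against 23.2% of all), and CACGTG, an E-box bound by Myc, in 9 (6.57%, against 7.69%). In the clusters inside genes above 80% these shares were 13.01% for TGTGGT, 29.7% for CAGGTG and 8.57% for CACGTG. Against that class the share of TGTGGT was alike, and those of CAGGTG and CACGTG were lower. CCGG, the site cut by MspI, was in 134 (97.8%, against 99.9%). Among the 26 windows of called clusters, TGGGAA was in 8, CAGGTG in 9, TGTGGT in 2, CACGTG in 2 and CCGG in 26. These letters are a description of the sequence and not sites of binding.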

How the data were processed

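RRBS libraries of 36 samples were analysed from a pair of deposited tables. Reads had been trimmed by the authors and aligned on GRCm38 (mm10) using Bismark 0.10.1 and Bowtie2, and the CpG sites had been grouped and smoothed with BiSeq. The deposited fraction is the smoothed methylation level of each of 1116417 positions, and the deposited log2 value is its M-value, limited at both ends. Coverage was not analysed here, so depth, and with it the counting error, is unknown. Smoothing makes neighbouring positions alike and can set levels at exactly 0 or 1, 21.0% to 59.1% of values per sample (highest in Ikaros 24 h replicate 2), and 0.110% to 11.6% of values were empty (highest in Control 0 h replicate 1).

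Clusters were rebuilt with Python 3.11.15 as given in the report. M-values and levels were averaged over positions with a value in all samples, of which there were 895908. limma 3.58.1 (R 4.3.3) was fitted to all 16734 clusters, with p-values adjusted by the Benjamini-Hochberg method over all of them. The series test had time point and series as terms. F tests over time were made within each series and for the interaction. The scripts were tested on simulated data. Genes were those of GENCODE M21, and sequences came from the RefSeq copy of GRCm38.p6. Motif letters were counted in windows of 300 bp.

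The clusters and the gene lists were chosen with earlier results of these data known. Named clusters were the 8 higher and 6 lower with the smallest p between the series, the 3 with the smallest p in each time test, those in lymphoid factor, signalling or chromatin regulator genes, those next to each limit, the 3 with the most positions, and, among clusters with at least 40 positions, the 3 with the highest and the 3 with the lowest share of positions from 10% to 80%. Others are said to be named after their values were seen, and Prss56, Kcnq1 and Hoxc5 are named outside these rules too. Some clusters that meet this rule are not reported here.

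By the labels, replicates 1 and 3 are batches 1 and 4, and replicate 2 is batch 2 at 0 h and batch 3 later. The labels do not say what a batch is, and the paper uses the word for repeats of the time course. The batch thus pairs the samples, and replicate number 2 joins 2 batches. The deviations of same-numbered samples from their group means correlated at −0.000326 on average over 198 pairs (from −0.0491 to 0.0733). Replicates are separate cultures of 1 population per series. Alternatives were the level in place of the M-value, blocks for replicate or batch, all positions with a value, each replicate left out, libraries that stood apart left out, quality measures as covariates, and other limits of the rule. Leaving out Control 0 h replicate 1 or Ikaros 24 h replicate 2, and keeping only clusters with at least 10 positions, were added after seeing the data. So was the Bcr mean without Ikaros 24 h replicate 1.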

Additional observations from a re-analysis of the deposited data

How the results depend on the processing

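Against 26 clusters called between the series, 6 were called with the quality measures as covariates, 16 of 145 when chosen on Control replicate 1 and tested on replicates 2 and 3, and 0 with the 0 h samples only, where 18 had an unadjusted p under 0.05 (13.1%, against 6.94% of all clusters). The last 2 fits use fewer samples, and the cause of the loss with the covariates was not tested. Without 1 replicate 15 to 17 were called: 15 without replicate 1, 16 without replicate 2 and 17 without replicate 3, of which 12, 13 and 13 were among the 26. The shares of all clusters called without 1 replicate are not given here, so whether the drop is particular to the 137 is not shown. With a replicate block 26 were called, all of them among the 26. With the batch of the labels as a block 24 were called, all among the 26. Neither block changed a call in the time tests, where 0 stayed 0. The other fits called 21 to 32: 32 on the level scale (25 higher and 7 lower), 29 without Control 0 h replicate 1 and 22 without Ikaros 24 h replicate 2. No time test called any of the 137 under any alternative. The number of clusters was 334 with limits of 10% to 90%, 52 at over 5 kb from a start and 91 with gaps up to 50 bp, and 93 to 148 under the other rules. No named cluster that was called changed direction. The unknown coverage limits how far a single sample's level can be read.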
